A study of Mus musculus with 4 samples.

Results

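The leukocyte integrins and selectin ligands followed here are 9 genes chosen by symbol for what they encode: *Itga4*, *Itga6*, *Itgal*, *Itgax*, *Itgb1*, *Itgb2*, *Itgb7*, *Selplg* and *Cd44*. All 9 were present in the tables, each of which lists 24346 genes, and all 9 passed the filter on low values that left 11966 genes for testing. Their expression was compared in bulk RNA of *in vitro* MDSCs, the immature myeloid cells that BM of C57BL/6J mice gives in culture. The mice were females of 6 to 8 weeks, and every culture received GM-CSF at 40 ng/ml for 4 days. Both G-CSF cultures also received G-CSF at 5 ng/ml, and both Control cultures received none. The sequencing methods name no sort of the cells before RNA extraction, so each library is the average of whatever cell types the culture held.

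Integrins are heterodimers of an α and a β chain that hold leukocytes to other cells and to matrix. The β2 chain (CD18, *Itgb2*) pairs with αL (CD11a, *Itgal*) in LFA-1, the receptor of ICAM-1, and with αX (CD11c, *Itgax*), a receptor of complement fragments and a common dendritic cell marker. The β1 and β7 chains (*Itgb1*, *Itgb7*) both pair with α4 (CD49d, *Itga4*) to bind VCAM-1, fibronectin or MAdCAM-1, and β1 also pairs with α6 (CD49f, *Itga6*) to bind laminin. *Selplg* encodes PSGL-1, the main ligand of P-selectin on myeloid cells, on which rolling along vessel walls depends. *Cd44* encodes a hyaluronan receptor that can carry E-selectin ligands.

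The deposited values are FPKM, reads scaled to transcript length and library size, so that levels can be compared between genes as well as between libraries. From the steps of the lowest values, the libraries held about 12425000 to 15625000 reads. Pearson's r of log2 FPKM across 10557 genes was 0.9952 and 0.9953 between replicates and 0.9856 to 0.9883 between conditions, and genes are not independent replicates. The labels' extraction text speaks of liver, but the hepatocyte genes *Alb*, *Apoa1* and *Ttr* were listed at 0 in every library. The rest of the hepatocyte list, *Apoa2*, *Cyp2e1* and *Serpina1a*, stood at 1.416, 1.074 and 0.169 FPKM or below. *S100a8* and *S100a9* of myeloid cells together took 7.15% to 10.1% of all FPKM. The paper calls the 2 libraries of a group biological replicates, and no source used here says whether they came from separate mice, so p-values measure the spread between these cultures.

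*Itgb2* stood highest of the 9 genes and *Itga6* lowest (means of 522.5 and 5.57 FPKM over the 4 libraries). *Itgb2* was followed by *Selplg*, *Cd44*, *Itgb1*, *Itgax* and *Itgal*, and then by *Itga4*, *Itgb7* and *Itga6*. In the Control libraries, each gene lay clear of its neighbour in this order except *Itga4* and *Itgb7*, whose values overlapped. In the G-CSF libraries, the overlapping neighbours were *Itgax* and *Itgal*. The transcript of *Itgb2* made up 72.5% of the summed FPKM of all integrin β chains in the mean of the 4 libraries, *Itgb1* 13.5% and *Itgb7* 1.6%. Among the α chains, *Itgam*, which is not one of the 9 genes, made up 70.4%. *Itgax* made up 9.8%, *Itgal* 8.01%, *Itga4* 1.92% and *Itga6* 0.85%.

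**Figure D1:**
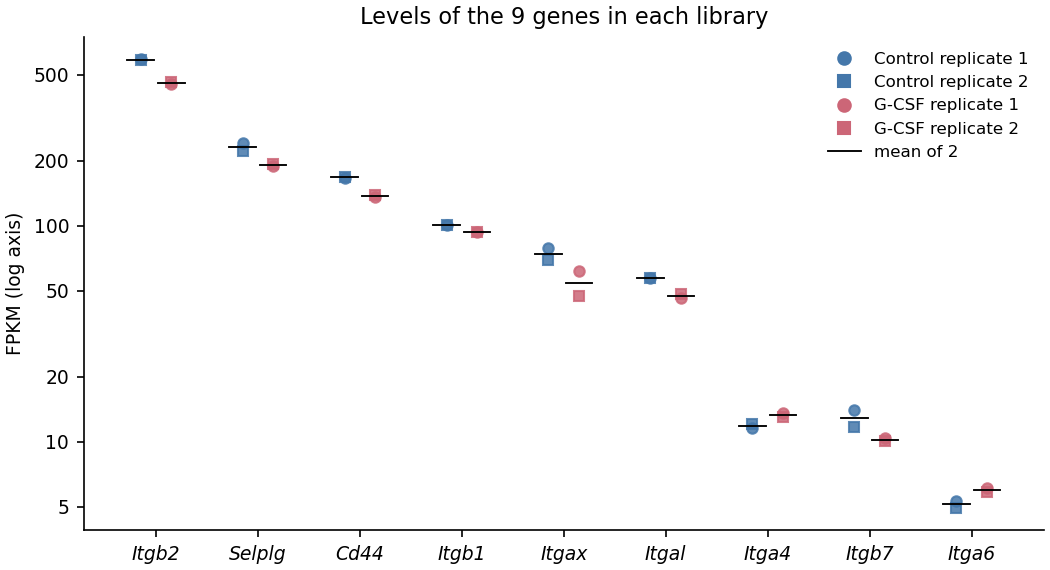
FPKM (log axis) of the 9 genes in each of the 4 libraries, with the mean of the 2 libraries of a group as a bar, ordered by mean level. In 7 genes both G-CSF points lie below both Control points, and in *Itga4* and *Itga6* they lie above.

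With G-CSF, 5 of the 9 genes fell: *Itgb2*, *Itgal*, *Itgax*, *Selplg* and *Cd44* (limma on log2(FPKM + 0.1), Benjamini-Hochberg adjusted p under 0.05). Across all genes tested, 11.4% fell by the same rule, 12.6% rose and 24.0% moved in either direction. These shares are over genes of every level and were not taken at matched levels. The 5 that fell had a mean FPKM above that of 85.2% to 98.6% of all genes tested, and *Itgb1* above 92.3%. *Itga6*, *Itgb7* and *Itga4* stood above 31.9%, 49.0% and 51.2%. *Itgb1* and *Itgb7* were also lower in both G-CSF libraries, and *Itga4* and *Itga6* were higher, but none of these 4 passed. At an unadjusted p under 0.05, 7 of the 9 genes were lower, against 18.8% of all genes tested, and *Itga4* was higher. The changes were small. None of the 9 reached the fold change of 2 that the study required, a rule that 1.44% of all genes tested met together with the adjusted p. The median log2 fold change of the 9 genes was -0.28, beside 0.0013 for all genes tested. In 7 of the 9 genes both G-CSF values lay below both Control values, as in 32.6% of all genes tested, and in 2 both lay above, as in 33.7%. When limma was run without the trend of variance on level, none of the 9 passed (adjusted p between 0.0557 and 0.238) and 0.903% of all genes tested did, while 6 were lower at an unadjusted p under 0.05, against 17.2% of all genes tested in that fit. With limma voom on estimated reads, 6 fell and *Itga4* rose, beside 12.5% of all genes tested that fell and 16.4% that rose in that fit. In bulk RNA, fewer cells that carry a transcript and less transcript per cell cannot be told apart.

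**Figure D2:**
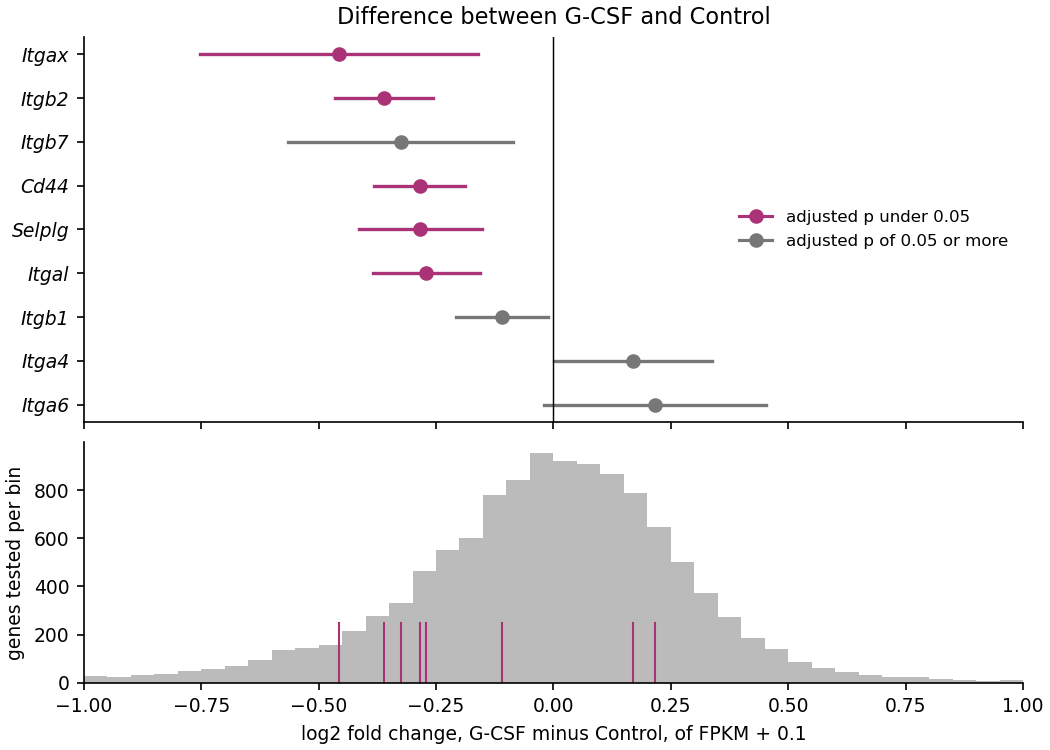
Top, log2 fold change (G-CSF minus Control, of FPKM + 0.1) of each gene with its 95% confidence interval from limma; bottom, the number of genes tested in bins of 0.05, with the 9 genes as ticks. The 5 genes with an adjusted p under 0.05 lie between -0.46 and -0.27, on the lower flank of all genes.

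The genes of the β2 integrins fell together. *Itgb2* (ENSMUSG00000000290.13, plus strand of chromosome 10, 77530252 to 77565708, GRCm38) read 591 and 584 FPKM in Control and 452 and 463 FPKM with G-CSF. Both G-CSF libraries were low, and their distance from Control was many times that between replicates. The mean went from 587.5 ± 4.67 to 457.5 ± 7.46 FPKM (SD, n = 2 each), 22.1% lower, and the log2 fold change was -0.36 (SE 0.0435, limma adjusted p = 0.00518). This rests on 15508 to 22857 estimated reads per library, the most of any of the 9 genes. Of the windows of 75 bases, the length of a read, in its transcripts, 0.21% also occur in another annotated gene.

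*Itgal* (ENSMUSG00000030830.18, plus strand of chromosome 7, 127296260 to 127335138) read 57.2 and 57.6 FPKM in Control and 46.5 and 48.6 FPKM with G-CSF. The Control values were nearly equal, and both G-CSF values were below them. Its mean was 57.4 ± 0.304 against 47.6 ± 1.46 FPKM (SD, n = 2 each), 17.1% lower (log2 fold change -0.27, SE 0.0474, limma adjusted p = 0.0119).

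*Itgax* (ENSMUSG00000030789.9, plus strand of chromosome 7, 128129547 to 128150657) read 78.6 and 69.7 FPKM in Control and 61.5 and 47.2 FPKM with G-CSF. Its replicates lay apart in both groups, and the groups did not overlap. The mean fell from 74.2 ± 6.23 to 54.4 ± 10.1 FPKM (SD, n = 2 each), and the log2 fold change was -0.46 (SE 0.123, limma adjusted p = 0.0404). Its 95% confidence interval ran from -0.75 to -0.16. The call depended on single libraries: without Control replicate 1 the log2 fold change was -0.37 (limma adjusted p = 0.116), and without G-CSF replicate 2 it was -0.27 (limma adjusted p = 0.0698). It was also lost with no filter on low values (limma adjusted p = 0.111). Of its windows, 5.01% are shared with *Itgad*, the adjacent gene, which reached at most 0.043 FPKM.

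*Itgal*, *Itgax*, *Itgad* and *Itgam*, whose products all pair with β2, lie on the same strand of chromosome 7. *Itgam* (128062640 to 128118491), which encodes αM (CD11b), the chain by which MDSCs are recognised, ends 11055 bases before *Itgax*, and *Itgal* ends 727501 bases before *Itgam*. *Itgam* read 520 and 515 FPKM in Control and 395 and 416 FPKM with G-CSF (log2 fold change -0.35, SE 0.0464, limma adjusted p = 0.0057). Together, *Itgal*, *Itgax* and *Itgam* summed to 655.6 and 642.8 FPKM in Control, against 503.2 and 511.5 FPKM with G-CSF, and the groups did not overlap. The ratio of *Itgal* to *Itgb2* was 0.0968 and 0.0987 in Control, against 0.103 and 0.105 with G-CSF, a narrow shift, and the ratio of *Itgax* to *Itgb2* overlapped between the groups. For such a ratio the exact permutation test (two-sided) cannot go below p = 0.333 with 2 libraries against 2, the value it gave for the ratio of *Itgal* to *Itgb2*.

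*Itgb1* (ENSMUSG00000025809.15, plus strand of chromosome 8, 128685654 to 128733200) moved little. It read 101 FPKM in both Control libraries and 93.5 FPKM in both G-CSF libraries. Replicates were almost equal, and the groups were apart by 7.3% of the Control mean. Its log2 fold change was -0.11 (SE 0.0408, 95% confidence interval -0.21 to -0.01) and did not pass (limma adjusted p = 0.0974). The ratio of *Itgb2* to *Itgb1* within a library, which any scaling leaves as it is, was 5.88 and 5.77 in Control, against 4.84 and 4.95 with G-CSF (exact permutation test, two-sided, p = 0.333, the smallest possible).

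*Itgb7* (ENSMUSG00000001281.10, minus strand of chromosome 15, 102215995 to 102231944) read 14.1 and 11.7 FPKM in Control and 10.4 and 10.1 FPKM with G-CSF. Control replicate 1 stood above the others. The means were 12.9 ± 1.64 and 10.2 ± 0.249 FPKM (SD, n = 2 each), and the log2 fold change was -0.32 (SE 0.0999, limma adjusted p = 0.0592). Without Control replicate 1 the log2 fold change was -0.20 (limma adjusted p = 0.24), and without Control replicate 2 it was -0.45 (limma adjusted p = 0.0274).

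*Itga4* (ENSMUSG00000027009.18, plus strand of chromosome 2, 79255426 to 79333123) read 11.6 and 12.1 FPKM in Control and 13.6 and 13.1 FPKM with G-CSF. Both G-CSF values were the higher ones, but the difference did not pass (log2 fold change 0.17, SE 0.0703, 95% confidence interval 0.001 to 0.34, limma adjusted p = 0.127). With voom on estimated reads it did (log2 fold change 0.19, limma voom adjusted p = 0.0279). Of its windows, 6.94% also occur in transcripts of *Cerkl*, which overlaps it on the other strand, and no source used here says whether the counting used strand.

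*Itga6* (ENSMUSG00000027111.15, plus strand of chromosome 2, 71745616 to 71858416) was the lowest of the 9 genes, at 5.34 and 4.96 FPKM in Control and 6.12 and 5.87 FPKM with G-CSF. The log2 fold change was 0.22 (SE 0.0979, 95% confidence interval -0.02 to 0.45, limma adjusted p = 0.154), on 283 to 369 estimated reads per library. Its annotation overlaps 4 other genes, and 4.46% of its windows occur elsewhere.

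The ratios of *Itga4* to the transcripts of its partner chains were higher in both G-CSF libraries than in both Control libraries. The ratio of *Itga4* to *Itgb1* was 0.115 and 0.12 in Control, against 0.145 and 0.14 with G-CSF, and the ratio of *Itga4* to *Itgb7* was 0.822 and 1.03 in Control and 1.3 in both G-CSF libraries. The ratio of *Itgal* to *Itga4* went the other way, from 4.95 and 4.76 to 3.43 and 3.72. In each of these ratios the groups did not overlap, and each gave p = 0.333 in the exact permutation test (two-sided), the smallest possible. Such a lack of overlap was common among single genes: both G-CSF values lay above in 33.7% of all genes tested and below in 32.6%. The ratio of *Itga4* to *Itga6* overlapped between the groups (2.16 and 2.44 against 2.22 and 2.23).

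The selectin ligands fell by nearly the same share. *Selplg* (ENSMUSG00000048163.13, minus strand of chromosome 5, 113818536 to 113832644) read 243 and 222 FPKM in Control and 188 and 193 FPKM with G-CSF. The Control libraries differed more from each other than the G-CSF libraries did, and the groups did not overlap. The mean fell from 232.2 ± 14.9 to 190.6 ± 2.96 FPKM (SD, n = 2 each), and the log2 fold change was -0.28 (SE 0.0545, limma adjusted p = 0.0152). Without Control replicate 1 it was -0.22 (limma adjusted p = 0.0534), and without G-CSF replicate 1 it was -0.27 (limma adjusted p = 0.0539).

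*Cd44* (ENSMUSG00000005087.17, minus strand of chromosome 2, 102811141 to 102901665) read 167 and 168 FPKM in Control and 137 and 138 FPKM with G-CSF. Replicates were within 2 FPKM of each other, and both G-CSF libraries were low. The mean fell from 167.6 ± 0.532 to 137.5 ± 1.36 FPKM (SD, n = 2 each), 17.9% lower (log2 fold change -0.29, SE 0.0402, limma adjusted p = 0.00689). Of the windows of *Cd44*, *Selplg*, *Itgal*, *Itgb1* and *Itgb7*, 0.0% occur in another gene. The ratio of *Selplg* to *Cd44* overlapped between the groups (1.45 and 1.32 against 1.38 and 1.39). *Cd44* has 9 annotated transcripts, and the tables hold a single value for the gene, so its variant exons were not separated.

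Promoter sequences of RefSeq (GRCm38.p6) were found for 5 of the 9 genes, *Cd44*, *Itgax*, *Itga4*, *Itgb1* and *Itgb7*. The 250 bases before the start that these sequences use are printed for *Cd44* and *Itgax*, which fell, and for *Itgb1*, which did not pass. The *Itgax* and *Itgb7* windows run a few bases into the genes as placed above, by GENCODE M21. The windows were searched on both strands for GAGGAA (a core of PU.1 and other ETS sites), TTGCNNAA (C/EBP) and TTCNNNGAA (STAT), and capitals mark the matches. The *Cd44* window is chr2:102901666-102901915 (minus strand), the *Itgax* window chr7:128129300-128129549 (plus strand) and the *Itgb1* window chr8:128685404-128685653 (plus strand).
Cd44: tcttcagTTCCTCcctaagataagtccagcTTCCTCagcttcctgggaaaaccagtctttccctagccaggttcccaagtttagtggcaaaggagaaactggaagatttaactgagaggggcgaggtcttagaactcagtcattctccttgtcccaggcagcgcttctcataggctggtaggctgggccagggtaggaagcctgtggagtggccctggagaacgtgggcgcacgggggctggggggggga
Itgax: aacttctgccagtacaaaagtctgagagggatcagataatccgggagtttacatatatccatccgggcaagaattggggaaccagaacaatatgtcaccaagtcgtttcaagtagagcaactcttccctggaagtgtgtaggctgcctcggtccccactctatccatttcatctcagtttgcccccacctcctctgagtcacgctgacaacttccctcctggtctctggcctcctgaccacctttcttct
Itgb1: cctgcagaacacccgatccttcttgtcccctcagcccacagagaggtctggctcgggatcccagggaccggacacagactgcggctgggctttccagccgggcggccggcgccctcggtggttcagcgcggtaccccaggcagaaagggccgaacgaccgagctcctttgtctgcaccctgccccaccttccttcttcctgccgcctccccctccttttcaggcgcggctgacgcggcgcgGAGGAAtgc

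GAGGAA occurred 2 times before *Cd44*, on the strand opposite to the one printed, from 243 and 220 bases before the start, and once before *Itgb1*, from 9 bases before it. It was not among the letters of the other 3 windows, and 23.3% of all 32851 windows of this length hold it. TTGCNNAA and TTCNNNGAA were in none of the 5 windows, and 9.56% and 7.02% of all windows hold them. No match says only that these letters are not in this window. The *Itgb1* window had the most CG pairs, 21 of them, against 5 or 6 in each of the other 4, and 68.0% of its bases were G or C (median of all windows, 52.4%).

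Besides the 7 integrin chains among the 9 genes, 13 of 20 further integrin chains in the tables were tested. Counts in this and the lists below stand beside 11.4% of all genes tested that fell and 12.6% that rose. Of 10 other α chains, 2 fell and 8 did not pass, with a median log2 fold change of -0.18. *Itgae*, the α chain (CD103) that pairs with β7 on dendritic cells and lymphocytes, fell from 2.98 and 2.26 FPKM to 1.46 and 1.04 FPKM (log2 fold change -1.01, SE 0.218, limma adjusted p = 0.0215), and *Itgam* was the other. Of the chains that pair with β1, *Itga5* (fibronectin receptor) had a log2 fold change of -0.04 (SE 0.0534) at a level near 24.5 FPKM, and *Itga1* (collagen receptor) had 0.09 (SE 0.0679) at a level near 21.3 FPKM. Neither passed. Of 3 other β chains, *Itgb2l*, which encodes a β2-like chain of mouse bone marrow neutrophils, fell from 95.2 and 91.3 FPKM to 42.6 and 43.4 FPKM, a log2 fold change of -1.12 (SE 0.0464, limma adjusted p = 0.000157). *Itgb5* (log2 fold change 0.07, SE 0.0644) and *Itgb3* (0.2, SE 0.149) did not pass.

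**Figure D3:**
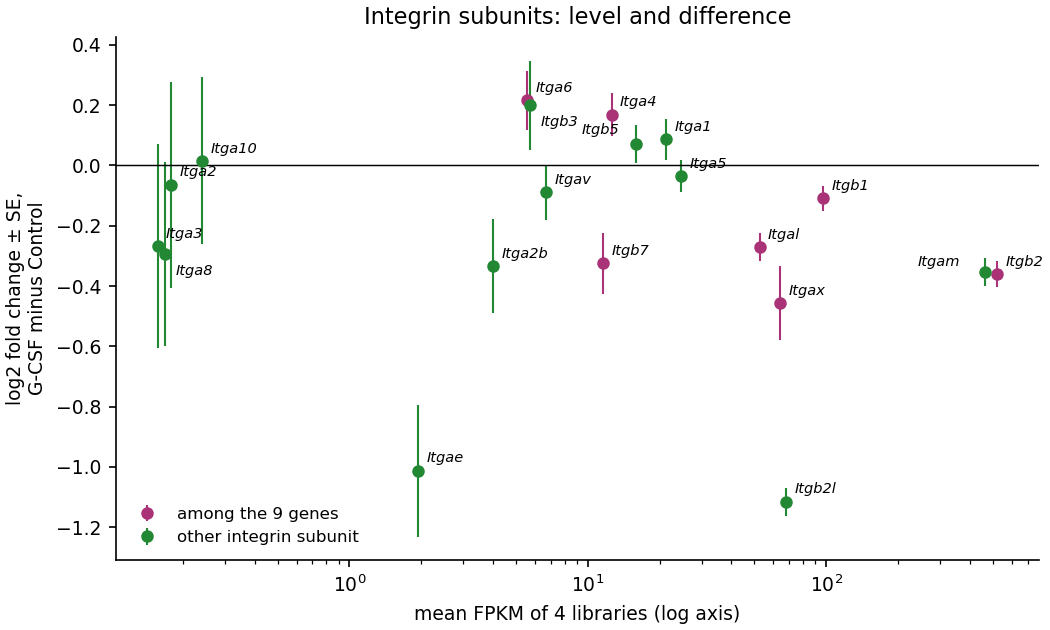
Log2 fold change ± SE (G-CSF minus Control, of FPKM + 0.1, limma) against the mean FPKM of 4 libraries (log axis) for the 20 integrin chains tested, 7 of them among the 9 genes. *Itgb2* and *Itgam* lie side by side at the right, near -0.36 and -0.35, and *Itgb2l* and *Itgae* lie lowest, near -1.12 and -1.01.

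Inside the cell, integrins are switched on by talin and kindlin and signal through Src-family kinases and paxillin. Of 27 such genes tested, 8 fell and 19 did not pass, with a median log2 fold change of -0.11. The share that fell among all genes tested was 11.4%. *Fgr*, a Src-family kinase of myeloid cells, fell from 75.1 and 72.1 FPKM to 59.1 and 60.9 FPKM (log2 fold change -0.30, SE 0.047, limma adjusted p = 0.00933). The adaptor genes *Lims1* (log2 fold change -0.25) and *Pxn* (-0.24) and *Rassf5* (-0.26), whose product RAPL acts on LFA-1, fell as well (limma adjusted p = 0.0148, 0.0175 and 0.0179). Talin (*Tln1*, log2 fold change -0.11, SE 0.0446) and the kindlin of blood cells (*Fermt3*, -0.04, SE 0.0456) did not pass. Tetraspanins, which gather integrins in the membrane, had 4 genes of 8 that fell and 4 that did not pass, with a median log2 fold change of -0.16. *Cd53* fell from 269 and 273 FPKM to 223 and 221 FPKM (log2 fold change -0.29, SE 0.0405, limma adjusted p = 0.00676). *Cd82*, *Cd9* and *Cd63* fell with log2 fold changes of -0.4, -0.36 and -0.21.

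PSGL-1 binds P-selectin only after its sugars and a tyrosine have been modified. Of 14 genes for these steps and for other ligand cores, 1 fell and 13 did not pass, with a median log2 fold change of -0.04. That count is near the 11.4% of all genes tested that fell. The gene that fell was *C1galt1*, which starts core O-glycans, from 21.2 and 20.2 FPKM to 17.5 and 17.2 FPKM (log2 fold change -0.25, SE 0.06, limma adjusted p = 0.0278). *Gcnt1*, which branches them, had a log2 fold change of -0.17 (SE 0.0545, limma adjusted p = 0.0674), and *Fut7*, the fucosyltransferase of selectin ligands, read 12.3 and 13.1 FPKM in Control and 9.15 and 12.1 FPKM with G-CSF (log2 fold change -0.27, SE 0.132). Neither passed. *Spn* (CD43) and *Glg1* (ESL-1), other ligands of E-selectin, had log2 fold changes of 0.12 (SE 0.0544) and 0.13 (SE 0.0499) and did not pass.

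Of 10 selectins and counter-receptors tested, 1 rose, 1 fell and 8 did not pass, with a median log2 fold change of 0.10. These counts are near the shares of all genes tested, of which 12.6% rose and 11.4% fell. *Icam1*, the ligand of LFA-1, fell from 54.5 FPKM in both Control libraries to 43.7 and 45.4 FPKM (log2 fold change -0.29, SE 0.0471, limma adjusted p = 0.0098). *Pecam1*, which serves passage between endothelial cells, rose from 20.01 and 19.1 FPKM to 24.6 and 24.0 FPKM (log2 fold change 0.31, SE 0.0581, limma adjusted p = 0.0142). *Selp* stood at 0.92 FPKM or below and *Sele* at 0.118 FPKM or below.

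Around CD44 and hyaluronan, 11 genes were tested, of which 3 rose, 2 fell and 6 did not pass, with a median log2 fold change of -0.08. Among all genes tested, 12.6% rose and 11.4% fell. *Hmmr*, a hyaluronan-binding protein that also serves the mitotic spindle, rose from 22.6 and 21.4 FPKM to 31.5 and 28.3 FPKM (log2 fold change 0.44, SE 0.0707, limma adjusted p = 0.00955). *Mmp14*, a protease that cleaves CD44, fell from 34.6 FPKM in both Control libraries to 29.4 and 25.2 FPKM (log2 fold change -0.34, SE 0.0782, limma adjusted p = 0.0247). *Lyve1* fell (log2 fold change -1.43, limma adjusted p = 0.0257), but near the floor, at 0.497 FPKM or below on 2 to 18 estimated reads per library. *Stab1* rose (0.55, limma adjusted p = 0.0295) at levels below 3 FPKM, on 191 to 337 estimated reads per library. *Rdx*, the radixin gene, rose with a log2 fold change of 0.21 (limma adjusted p = 0.0319), while *Msn* and *Ezr*, for moesin and ezrin, the other linkers of CD44 to actin, had -0.08 (SE 0.045) and -0.11 (SE 0.0449) and did not pass.

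**Figure D4:**
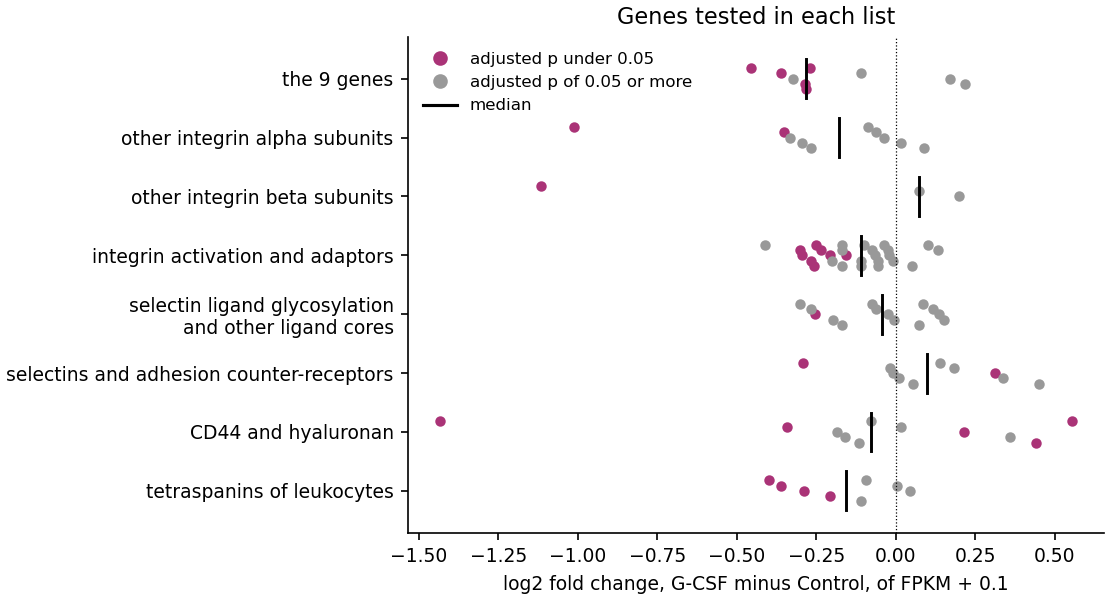
Log2 fold change (G-CSF minus Control, of FPKM + 0.1) of each gene tested in the 9 genes and in 7 related lists, with the median of each list as a bar and genes with an adjusted p under 0.05 in purple. The 9 genes have the lowest median, -0.28, and the selectins and counter-receptors the highest, 0.10.

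Markers of the cell types that such cultures can hold moved in the same libraries. By flow cytometry of cultures of this kind, the paper reports no effect of G-CSF on the percentages of MDSCs, dendritic cells or macrophages. It reports a lower proportion of polymorphonuclear MDSCs and a higher one of monocytic MDSCs. In the neutrophil list, 6 of 7 genes tested fell, and its summed FPKM was 8776 and 9528 in Control, against 5225 and 5573 with G-CSF. For this and the other marker lists, the share of all genes tested that fell was 11.4%, and 12.6% rose. Of the dendritic cell list, 5 of 9 fell, the sum going from 1177 and 1413 to 572.2 and 725.4 FPKM, and MHC class II genes made up most of it. The order of the libraries in this sum, Control replicate 1 highest, then Control replicate 2, G-CSF replicate 1 and G-CSF replicate 2, is also the order of *Itgax*, *Itgb7* and *Itgae*. How many of all genes tested share this order was not counted. Both G-CSF values lay below both Control values in 32.6% of them. Of the macrophage list 6 of 8 fell, with sums of 551.4 and 566 FPKM in Control, against 454.5 and 468.3 with G-CSF. Of the mast cell and basophil list 4 of 6 fell, with sums of 108.3 and 117.4 FPKM, against 65.6 and 73.4. Of the eosinophil list 3 of 7 fell, with sums of 567.1 and 673.4 FPKM, against 337.6 and 374.7. Of the mast cell genes, *Tpsb2* and *Cma1* were listed at 0 in both G-CSF libraries and stood at 0.24 and 0.081 FPKM or below in Control. The monocyte list summed to 1478 and 1528 FPKM in Control, against 1358 and 1425 with G-CSF, with 1 gene of 7 that rose, 1 that fell and 5 that did not pass. The general myeloid genes *Ptprc* (log2 fold change -0.37, SE 0.0489) and *Cd33* (-0.61, SE 0.0435) fell as well, among 5 of 8 in their list. The stem and progenitor list summed to 24.0 and 26.2 FPKM in Control, against 32.2 and 34.2 with G-CSF, and of its 5 genes *Myb* rose and *Kit* fell.

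Lymphocytes also carry *Itgal*, *Itga4* and *Itgb7*. T cell genes summed to 9.48 and 10.8 FPKM in Control, against 5.36 and 5.64 with G-CSF, with 3 of 5 tested that fell, and *Cd4* stood at 0.078 FPKM or below. B cell genes summed to 5.51 FPKM or below in every library, with 1 of 3 tested that fell, and NK cell genes to 15.2 FPKM or below, nearly all of it *Nkg7*, with *Ncr1* listed at 0 throughout. Platelet genes summed to 48.7 and 52.7 FPKM in Control, against 45.4 and 46.6 with G-CSF. Of these 6 genes 1 fell, beside 11.4% of all genes tested. Erythroid, hepatocyte, stromal and endothelial genes summed to 2.36 FPKM or below in every library, and of the 5 tested in these lists 1 fell, *Col1a1*. The part of these cell types in the changes of the 9 genes was not tested.

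**Figure D5:**
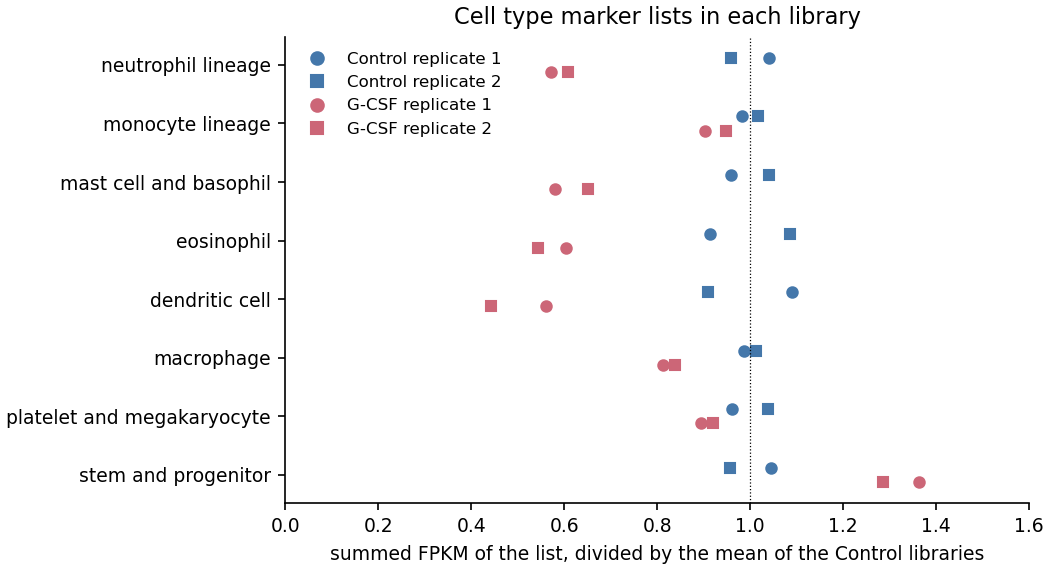
Summed FPKM of 8 cell type marker lists in each library, divided by the mean of the Control libraries. The G-CSF points lie below the Control points in all of these lists except the stem and progenitor list, where they lie above.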

How the data were processed

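RNA of 2 Control and 2 G-CSF cultures was sequenced by the authors as stranded mRNA libraries with reads of 75 bases from a single end. Per the labels, the submitters' processing notes name TopHat2 2.0.13, Bowtie2 2.2.3, SAMtools 0.1.19, Cufflinks 2.2.1 and mm10, the same build as GRCm38. The annotation that was counted is not given in the sources used here. The authors deposited 1 table per library with a value per gene symbol, taken as FPKM because the values are not whole and fall on steps set by transcript length. FPKM already holds their scaling to length and depth, so differences are relative to each library's total.

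Reads were estimated from the steps of the deposited FPKM: with transcript lengths of GENCODE M21 less 210 bases, 66.2% to 68.2% of the low values came out whole to within 0.05 reads. Of 24346 names, 23990 were found in the annotation. The filter kept genes that reached 10 estimated reads in 2 or more libraries and 15 summed over the 4, leaving out small RNA genes and those without a length. The comparison was made by limma 3.58.1 in R 4.3.3 on log2(FPKM + 0.1) (lmFit, eBayes with trend = TRUE, two-sided, no replicate block), with Benjamini-Hochberg adjustment over all genes tested. Fold changes on this scale are understated for low genes, and more so near the added 0.1 FPKM. *Lyve1*, for example, was 63.0% lower on this scale and 78.8% lower in mean FPKM. A gene rose or fell at an adjusted p under 0.05. Figures were drawn with matplotlib 3.10.9, and exact permutation tests run with scipy 1.17.1, in python 3.11.15.

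The 9 genes were given by symbol. From 7 related lists, the genes named are up to 4 with the smallest p and up to 2 of high level; *Fut7*, *Tln1*, *Fermt3*, *Itga1*, *Rdx* and *Ezr* were named for their role, after their values were seen. The genes and lists, and 16 marker lists, were chosen with earlier results of these data known. The alternatives were other pseudocounts, filters and scalings, voom, no trend, a replicate block, and each library left out.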

Additional observations from a re-analysis of the deposited data

How the results depend on the processing

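In all 14 alternatives the same 7 of the 9 genes were lower and *Itga4* and *Itga6* higher with G-CSF. The groups did not overlap in any of the 9 genes, which was common: among all genes tested, both G-CSF values lay below in 32.6% and above in 33.7%. Leaving out a library or changing the pseudocount or filter therefore could not turn a direction. Dropping the trend or adding the replicate block leaves every fold change as it is, so these 2 alternatives could not turn one either. Among 126 fold changes of single genes, 111 kept their side of the threshold, 10 lost and 5 gained a call. Without the trend of variance on level, 108 genes in all were called by limma, 63 of them with a fold change over 2, and 0 of the 9 genes. At an unadjusted p under 0.05, 6 of the 9 were lower, against 17.2% of all genes tested in that fit. The cause of the lower number of calls was not tested. With no filter 1626 genes were called, and *Itgax* was lost (limma adjusted p = 0.111). With a pseudocount of 1 FPKM, 57 genes had a fold change over 2 in place of 172, and with a filter of 1 FPKM in every library, 80, since that filter removes low genes. With each library left out in turn, and the lone library of its group taken to vary like the others, between 1529 and 1899 genes were called in place of 2877, and between 3 and 6 of the 9 fell, with a median log2 fold change of -0.30 to -0.22. Across these fits the log2 fold change of *Itgb2* ran from -0.378 to -0.344, that of *Itgal* from -0.302 to -0.24 and that of *Cd44* from -0.295 to -0.275. That of *Itgax* ran more widely, from -0.647 to -0.267. *Itgb7* fell with upper-quartile scaling (limma adjusted p = 0.0468), with voom (0.0452) and without Control replicate 2 (0.0274). Scaling to equal sums of FPKM, chosen after seeing the data, kept the 5 calls, with a median of -0.26. That fit called 23.3% of all genes tested in either direction. With the replicate number as a block, 4008 genes were called, 33.5% of all genes tested, and 187 of them had a fold change over 2. Of the 4008, 1962 fell. In that fit 6 of the 9 genes fell, *Itgb7* added (limma adjusted p = 0.0179). The median of -0.28 is fixed to be that of the main fit. Deviations of same-numbered libraries from their group means correlated at 0.26 across genes, but nothing in the labels says that a number marks a shared batch. The depth of about 12425000 to 15625000 reads left each of the 9 genes with at least 283 estimated reads, and with 2 libraries a group a difference that did not pass is not shown to be absent.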
